A study of Mus musculus with 45 samples.

Results

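The 5 genes described here are Hnf4a, Hnf4g, Tcf7l2, Adcy5 and Cdkal1, members of the hepatocyte nuclear factor network and genes at human diabetes risk loci, in islets of Langerhans of 3 inbred mouse strains. They were chosen by gene symbol, 5 of the 22904 genes in the deposited matrices, and all 5 passed the filter on low counts that left 20306 genes. The series is bulk RNA sequencing of 45 islet libraries in 12 groups of strain, sex and diet. C57BL/6J is a common laboratory strain, CAST/EiJ is wild-derived, and NZO/HlLtJ is an obese strain prone to diabetes; the labels give every mouse as wild type and untreated apart from diet. The diets were a control feed (10% fat) and one rich in fat and sugar (44% fat), each with added fiber; feeding began at an age of 6 weeks and lasted until islets were taken at 16 weeks. Each strain had females and males on each diet: 9 of these groups held 4 libraries, while the male groups of NZO/HlLtJ (both diets) and of CAST/EiJ (10% fat) held 3.

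Hepatocyte nuclear factors are transcription factors first described in liver that also act in islets. HNF4A and HNF4G are closely related nuclear receptors that bind the same kind of DNA element; heterozygous loss of HNF4A causes a monogenic, early-onset form of diabetes. TCF7L2 is the DNA-binding partner of beta-catenin at the end of the WNT pathway, ADCY5 is an adenylyl cyclase that makes the second messenger cAMP, which strengthens insulin secretion, and CDKAL1 modifies a lysine transfer RNA and so helps read lysine codons during proinsulin synthesis. Common variants at TCF7L2, ADCY5 and CDKAL1 are among the human risk loci for type 2 diabetes.

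In the deposited annotation of build GRCm38, Hnf4a (ENSMUSG00000017950) lies on chromosome 2 from 163506808 to 163572910 and Hnf4g (ENSMUSG00000017688) on chromosome 3 from 3508030 to 3658052. Tcf7l2 (ENSMUSG00000024985) lies on chromosome 19 from 55741810 to 55933654, and Adcy5 (ENSMUSG00000022840) on chromosome 16 from 35154877 to 35305737. Cdkal1 (ENSMUSG00000006191) lies on chromosome 13 from 29191746 to 29855674. Cdkal1 is on the minus strand and the other members are on the plus strand. Genes overlapping them, among them the antisense gene Hnf4aos, shared 0 exonic bases with a member in the GENCODE annotation of the same build.

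Hnf4a has an upstream and a downstream start site, and the gene-level counts pool transcripts of both. The 250 bases before each start are shown because the counts cannot tell these promoters apart; they come from RefSeq, build GRCm38.p6, plus strand, at chr2:163506607-163506856 (upstream) and chr2:163546905-163547154 (downstream). They were searched on both strands for the motifs of the members' own pathways, and no letters are in capitals because no match was found.
Hnf4a upstream start: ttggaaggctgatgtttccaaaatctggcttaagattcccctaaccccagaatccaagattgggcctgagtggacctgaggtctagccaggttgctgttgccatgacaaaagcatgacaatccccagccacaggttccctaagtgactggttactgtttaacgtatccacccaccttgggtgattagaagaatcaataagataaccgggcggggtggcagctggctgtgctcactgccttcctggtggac
Hnf4a downstream start: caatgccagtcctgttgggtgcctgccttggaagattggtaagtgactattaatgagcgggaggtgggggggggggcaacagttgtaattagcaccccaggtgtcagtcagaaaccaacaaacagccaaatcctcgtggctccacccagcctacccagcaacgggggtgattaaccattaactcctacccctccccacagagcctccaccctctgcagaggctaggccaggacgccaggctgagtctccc
Their GC content was 51.2% and 57.6%. The table had windows for 4 of the 5 members, 6 of 32851 windows of this length before RefSeq gene starts. In these 6 windows there was no match to the HNF4 motif CAAAGTCCA with at most 1 mismatch (held by 7.05% of all windows), the TCF motif CTTTGAT with 0 mismatches (3.21%) or the cAMP response element TGACGTCA with at most 1 mismatch (10.6%). GC content was 78% before Adcy5 and 34.4% before Cdkal1; a match or its absence describes the letters in these windows only.

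Totals per library ranged from 57.2 to 110 M estimated counts (median 84.4 M). Levels are given in CPM, counts relative to the library total after scaling for library composition. Transcripts near absent from a library's own strain but present in another (7 to 18 per pair of strains) were found above the level of all other libraries (at most 0.814% of the other strain's level) in 5 libraries: 3 of the 4 CAST/EiJ females on 44% fat (9.48%, 3.87% and 3.54% of the C57BL/6J level for replicates 1, 4 and 2), NZO/HlLtJ male replicate 3 on 44% fat (1.56%) and C57BL/6J female replicate 2 on 44% fat (1.23%). Results are given with and without these 5 where it matters. Markers of beta cells were high in all groups, summing to between 55300 and 188000 CPM over 10 genes, and 14 acinar markers, from digestive enzyme cells outside the islet, summed to between 416 and 540000 CPM. Nothing in the labels ties each library to its own mouse; p-values here therefore reflect spread between libraries, which may be technical.

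Per kilobase of exon, the median level over the 45 libraries was highest for Hnf4a at 7.85 CPM per kb, followed by Hnf4g at 1.74, Cdkal1 at 0.883, Adcy5 at 0.753 and Tcf7l2 at 0.545. The length was that of all annotated exons merged, from 2.63 kb for Hnf4g to 12.8 kb for Cdkal1, so this order depends on the annotated isoforms. In CPM alone the medians were 37.9 for Hnf4a, 11.3 for Cdkal1, 5.41 for Adcy5, 4.78 for Tcf7l2 and 4.57 for Hnf4g. Both orders cover total transcript from all cells of an islet. Hnf4a rested on 1365 to 8120 counts per library and Hnf4g on 134 to 671, so single values of Hnf4g carry the larger counting error. Between the lowest and the highest library, Hnf4g spanned 3.86-fold in CPM, Adcy5 3.28-fold, Hnf4a 3.22-fold and Tcf7l2 2.93-fold, against 1.37-fold for Cdkal1. Strain accounted for 59.3% of the variance of log2 CPM of Hnf4a and 58.1% of that of Tcf7l2, but for 28.2% of that of Hnf4g, whose groups together accounted for 69.1%.

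**Figure D1:**
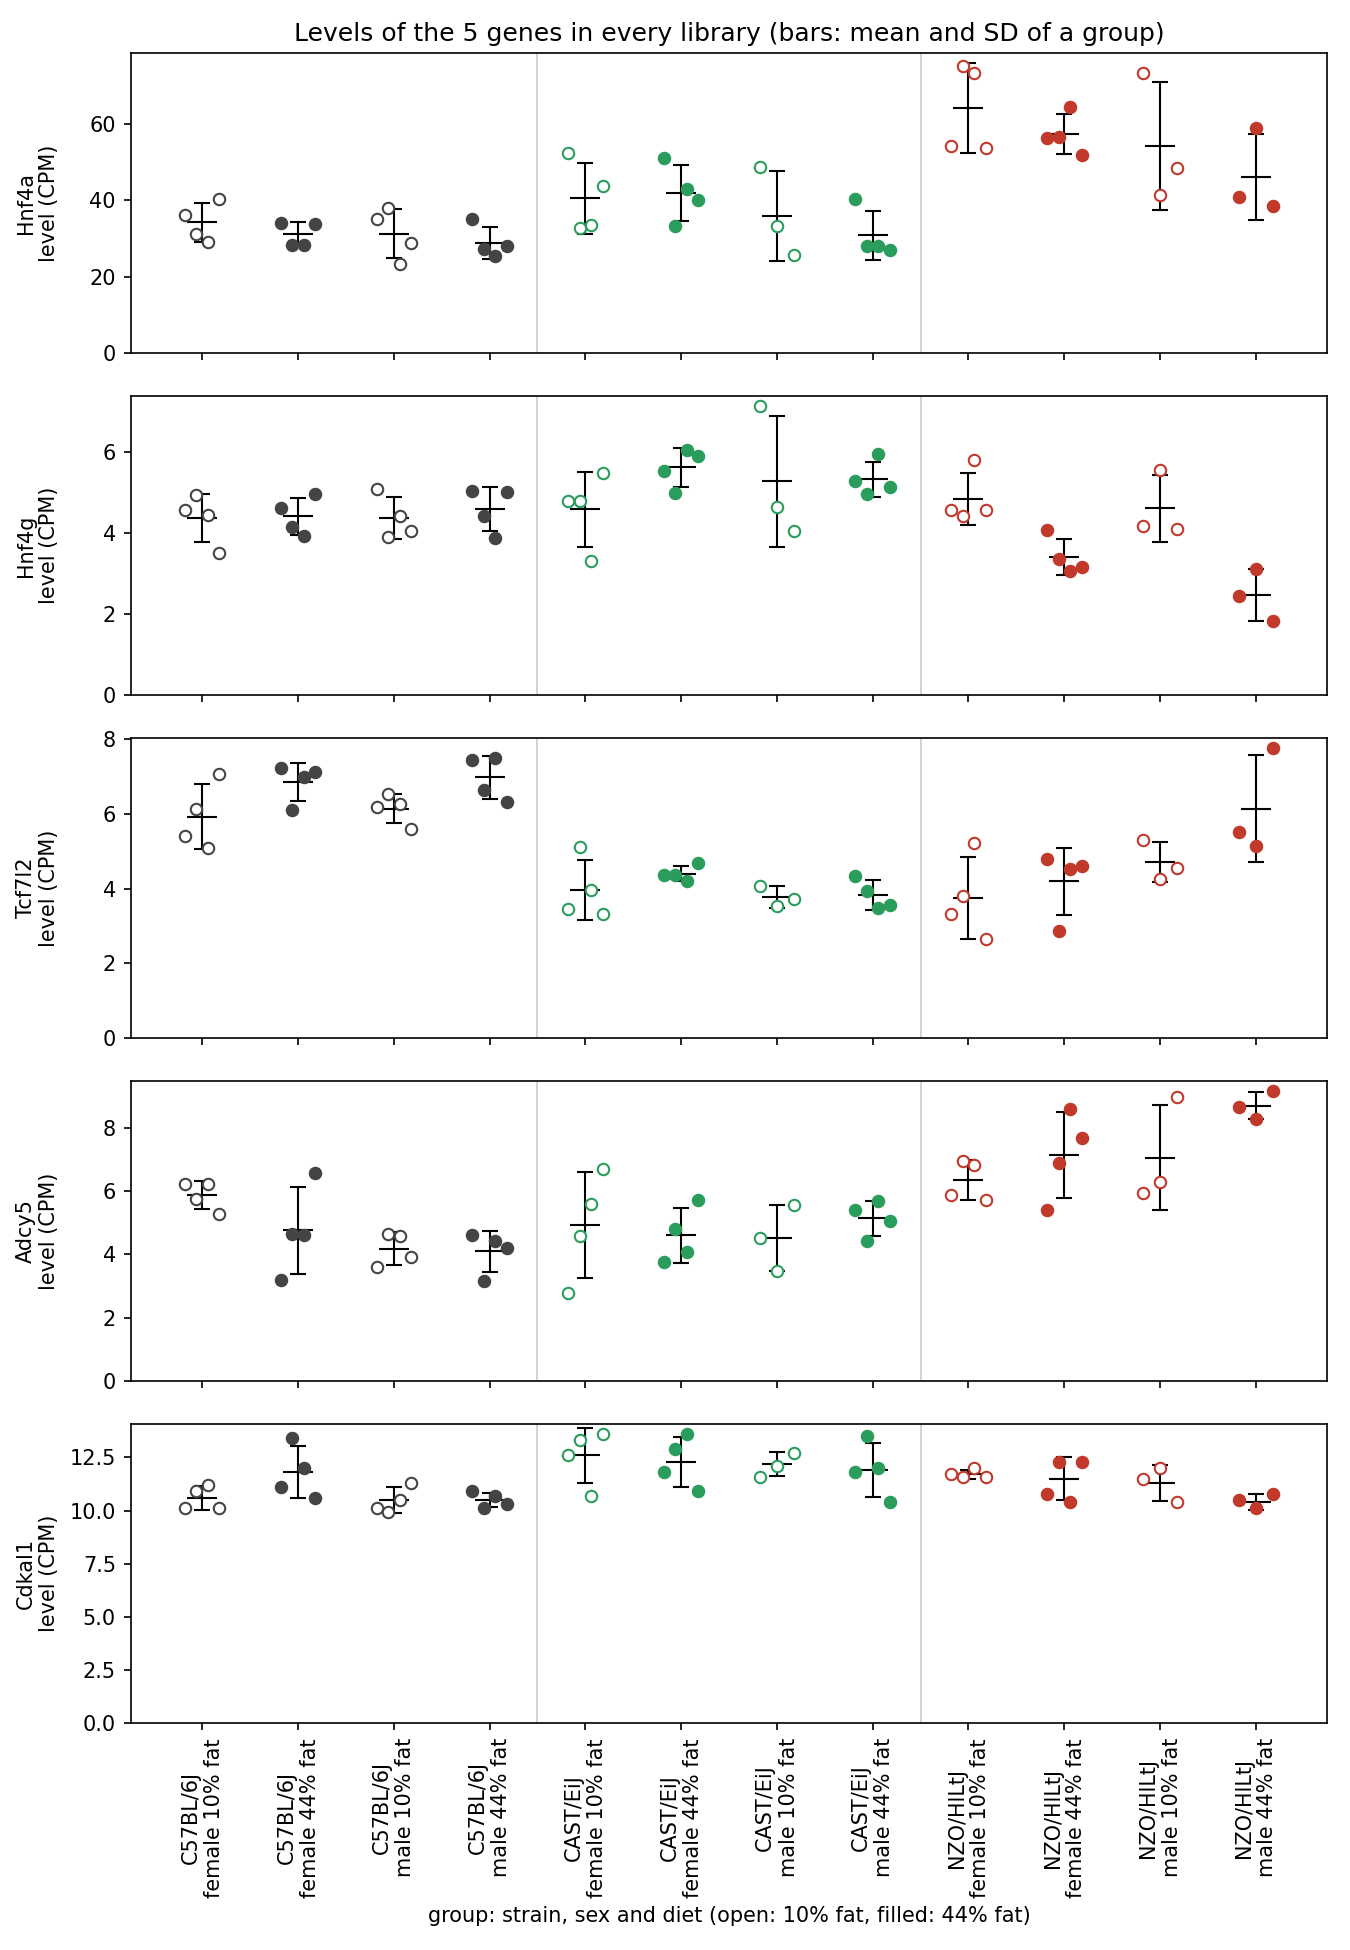
Levels in CPM of the 5 genes in every library (points; open on 10% fat, filled on 44% fat), by strain, sex and diet, with group mean and SD as bars; each vertical axis starts at 0. The mean of Hnf4a is highest in NZO/HlLtJ on both diets, that of Hnf4g lowest in NZO/HlLtJ on 44% fat (7 libraries, 1.84 to 4.07), and the mean of Tcf7l2 highest in C57BL/6J.

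Hnf4g was the one member whose level passed the test for diet, and it did so in NZO/HlLtJ, where it fell on 44% fat. In NZO/HlLtJ females its levels were 4.57, 4.42, 5.8 and 4.57 CPM on 10% fat and 4.07, 3.35, 3.07 and 3.17 CPM on 44% fat. In males they were 4.17, 5.55 and 4.1 CPM on 10% fat and 2.44, 3.11 and 1.84 CPM on 44% fat. All libraries on 44% fat were below all libraries on 10% fat in CPM, in each sex and over both, with means of 4.74 ± 0.668 (SD, n = 7) on 10% fat against 3.01 ± 0.702 CPM (SD, n = 7). Over both sexes the nearest libraries, at 4.07 and 4.1 CPM, tied at 8.73 in the deposited log2 values. The log2 fold change, as the mean of the sexes, was -0.70 (SE 0.13, 95% interval -0.95 to -0.46, adjusted p = 3.92e-05, edgeR quasi-likelihood test), or 0.615 times the level on 10% fat. In this comparison 35.8% of all genes tested passed the threshold of an adjusted p under 0.05, and 1 of the 5 members did.

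The fall of Hnf4g was -0.50 in NZO/HlLtJ females (SE 0.16, adjusted p = 0.0293, 17.2% of all genes called) and -0.90 in males (SE 0.19, adjusted p = 0.000469, 32.1% of all genes called), on the log2 scale. The difference between the sexes did not pass the test (-0.40, 95% interval -0.89 to 0.09, adjusted p = 0.329), and 0 of the 5 members did, against 10% of all genes. Outside number series 76 of the sample codes, females on 10% fat and males on 44% fat were all of series 80. Females on 44% fat and males on 10% fat were there all of series 89. Diet within a sex, and its difference between the sexes, therefore cannot be told apart from series in those libraries. The call in females was lost without the 10% fat replicate 3 (-0.40, adjusted p = 0.12) or without the 44% fat replicates 2 (-0.49, 0.0657), 3 (-0.45, 0.0917) or 4 (-0.47, 0.0774), and with the strain fitted alone (-0.51, 0.0907). With the summed level of endothelial, fibroblast and pericyte markers as a covariate, an alternative chosen after seeing the data, neither sex was called (-0.43, adjusted p = 0.158 in females and -0.76, adjusted p = 0.0868 in males). Fibroblast and pericyte markers alone summed to 662 to 877 CPM in females on 10% fat and 977 to 1710 on 44% fat. In males they summed to 774 to 1880 and 2240 to 4010 CPM. Neither sex overlapped between the diets, so this covariate cannot tell marker level from diet. Leaving out any 1 NZO/HlLtJ library gave between -0.80 and -0.62 for both sexes together, and without the 5 libraries with other-strain transcripts the value was -0.63 (adjusted p = 0.00108). Within sample code series 76, the one number series of the labels that held every NZO/HlLtJ group, it was -0.52 and not called (adjusted p = 0.156).

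In C57BL/6J and CAST/EiJ the level of Hnf4g did not move past the test with diet. In C57BL/6J it was 4.37 ± 0.523 CPM (SD, n = 8) on 10% fat and 4.5 ± 0.474 CPM (SD, n = 8) on 44% fat; in CAST/EiJ it was 4.89 ± 1.2 (SD, n = 7) and 5.48 ± 0.447 CPM (SD, n = 8). The diets overlapped in both strains, with log2 changes of 0.04 (95% interval -0.18 to 0.27) and 0.16 (-0.08 to 0.39). The diet effect in NZO/HlLtJ was lower than that in C57BL/6J by an interaction of -0.74 (SE 0.17, adjusted p = 0.00257) and lower than that in CAST/EiJ by -0.86 (SE 0.17, adjusted p = 0.000535). Of the 5 members Hnf4g alone passed either interaction test, where 18.8% and 25.7% of all genes did. These interactions share the NZO/HlLtJ libraries, and neither was called with the endothelial and fibroblast marker level as a covariate (-0.63, adjusted p = 0.323, and -0.75, adjusted p = 0.0607). The limit of this covariate given above holds for them too.

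Other cells' markers moved with the fall of Hnf4g. From 10% to 44% fat, the summed level of 7 macrophage markers went from between 57.1 and 61.8 CPM to between 153 and 207 in NZO/HlLtJ females, and from between 80 and 246 to between 454 and 794 in males. All 7 macrophage markers, all 7 fibroblast and pericyte markers, all 6 lymphocyte markers, 6 of 8 duct and 4 of 6 endothelial markers rose in the NZO/HlLtJ diet comparison, 7 of 10 beta cell markers fell, and none of the 14 acinar markers was called. The summed acinar level was nevertheless higher on 44% fat in males, at 62600 to 140000 CPM against 33000 to 46400 on 10% fat. In females it ran from 29500 to 78200 CPM against 13500 to 67000, with overlap. The summed beta cell level ran from 106000 to 139000 CPM in females on 10% fat and from 131000 to 185000 on 44%, with overlap. In males it ran from 139000 to 188000 CPM on 10% fat and from 55300 to 113000 on 44%, without overlap. By median it was higher on 44% fat in females (169000 against 117000 CPM) and lower in males (104000 against 157000 CPM). With the acinar marker level as a covariate the log2 change of Hnf4g was -0.65 (adjusted p = 0.000106), and with the endothelial and fibroblast marker level it was -0.60 (adjusted p = 0.0448). The latter level did not overlap between the diets in either sex, nor did the summed acinar level in males. Marker level and diet cannot be told apart there. The part of macrophage, lymphocyte and duct RNA in the fall of Hnf4g was not tested. In bulk samples fewer cells of a type and less RNA per cell cannot be told apart.

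Hnf4a, the closest relative of Hnf4g, differed by strain, while its diet changes did not pass the test. On 10% fat its level ran from 41.4 to 75.4 CPM in NZO/HlLtJ (median 54.3, n = 7), from 23.4 to 40.5 in C57BL/6J (median 33.2, n = 8) and from 25.6 to 52.4 in CAST/EiJ (median 33.5, n = 7). NZO/HlLtJ and C57BL/6J did not overlap, while NZO/HlLtJ and CAST/EiJ did. Hnf4a was 1.81-fold higher in NZO/HlLtJ than in C57BL/6J (log2 0.85, SE 0.14, adjusted p = 5.55e-06) and 1.55-fold higher than in CAST/EiJ (log2 0.63, SE 0.15, adjusted p = 0.000399). On 44% fat the order was the same, with 52.6 ± 9.58 CPM (SD, n = 7) in NZO/HlLtJ, 30 ± 3.69 (SD, n = 8) in C57BL/6J and 36.3 ± 8.67 (SD, n = 8) in CAST/EiJ. The log2 differences there were 0.78 (SE 0.14, adjusted p = 9.09e-06; no overlap) and 0.52 (SE 0.14, adjusted p = 0.00133; overlap). Without the 5 libraries the difference from C57BL/6J on 10% fat was 0.88 (adjusted p = 8.42e-06), and with the endothelial and fibroblast marker level as a covariate it was 0.79 (adjusted p = 0.0199). That covariate ended both calls on 44% fat (0.67, adjusted p = 0.347, and 0.42, adjusted p = 0.422), and library totals in place of composition scaling ended the one against CAST/EiJ (0.33, adjusted p = 0.0712). NZO/HlLtJ and the other strains do not overlap in the endothelial and fibroblast marker level. Values with that covariate therefore cannot tell strain from marker level.

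Within NZO/HlLtJ, Hnf4a measured 54.3, 75.4, 73.6 and 53.9 CPM in females on 10% fat and 56.5, 56.7, 64.5 and 52 on 44% fat. Males measured 73.4, 41.4 and 48.5 CPM on 10% fat and 40.8, 59.1 and 38.6 on 44% fat. The diets overlapped in both sexes, and the diet change was -0.20 on the log2 scale (95% interval -0.49 to 0.09, adjusted p = 0.305). The difference between the fall of Hnf4g and the change of Hnf4a was not tested.

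Strain differences on 10% fat passed the test for 3 of 5 members between NZO/HlLtJ and C57BL/6J, 2 of 5 between NZO/HlLtJ and CAST/EiJ, and 2 of 5 between CAST/EiJ and C57BL/6J. The shares of all genes tested were 43.8%, 54.8% and 48%. On 44% fat the counts were 4, 5 and 2 of 5, and the shares of all genes were 67.8%, 70.9% and 50.5%. These counts lie near the shares of all genes and are no result about the 5 as a set; the sizes for each gene follow. No source used here states whether alignment allowed for strain variants, on which any count difference between strains depends.

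**Figure D2:**
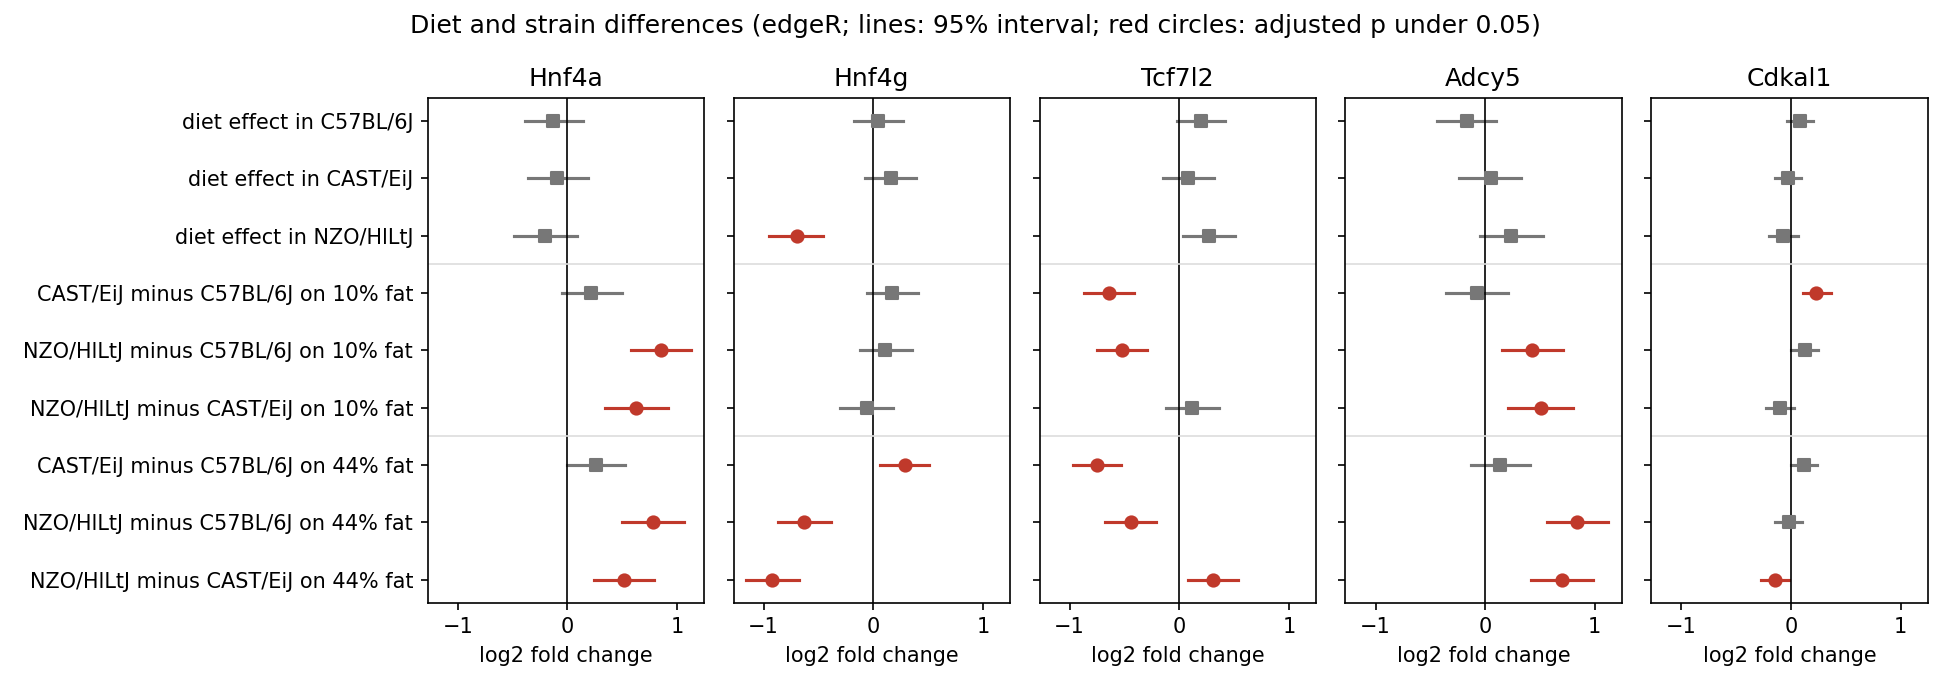
Log2 fold changes of the 5 genes for diet within each strain and for strain on each diet (points) with 95% intervals (lines); red circles passed an adjusted p under 0.05 and grey squares did not. Hnf4g has the sole red diet point, at -0.70 in NZO/HlLtJ, and Cdkal1 stays within 0.23 of 0 throughout.

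Tcf7l2 had its highest mean in C57BL/6J on both diets. On 10% fat it ran from 5.09 to 7.05 CPM in C57BL/6J (median 6.16, n = 8), from 3.32 to 5.11 in CAST/EiJ (median 3.72, n = 7) and from 2.65 to 5.31 in NZO/HlLtJ (median 4.26, n = 7). The 10% fat ranges of both other strains met that of C57BL/6J at its lower end. The log2 difference from C57BL/6J was -0.64 in CAST/EiJ (SE 0.12, adjusted p = 2.27e-05) and -0.52 in NZO/HlLtJ (SE 0.12, adjusted p = 0.000485), and that between NZO/HlLtJ and CAST/EiJ was 0.12 (adjusted p = 0.425). On 44% fat CAST/EiJ (3.47 to 4.68 CPM) lay wholly below C57BL/6J (6.11 to 7.48 CPM), at -0.75 (SE 0.11, adjusted p = 5.49e-07), and NZO/HlLtJ was lower by -0.44 (SE 0.12, adjusted p = 0.00121). Without the 5 libraries these became -0.78 (adjusted p = 0.000296) and -0.55 (adjusted p = 0.000922). With the endothelial and fibroblast covariate the latter was -0.95 and no longer called (adjusted p = 0.0716).

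With diet in NZO/HlLtJ, Tcf7l2 came near the threshold. Females measured 3.32, 3.81, 5.22 and 2.65 CPM on 10% fat and 4.78, 2.86, 4.53 and 4.61 on 44% fat; males measured 5.31, 4.26 and 4.55 on 10% fat and 5.51, 5.15 and 7.76 on 44% fat. The diets overlapped in both sexes. The log2 change was 0.27 (SE 0.12, 95% interval 0.03 to 0.51, adjusted p = 0.0797), and it passed with DESeq2 (0.31, adjusted p = 0.0375), with DESeq2's size factors in edgeR (0.31, adjusted p = 0.0471) and with limma on the deposited log2 values (0.25, adjusted p = 0.0481). It was smaller without the 5 libraries (0.16, adjusted p = 0.407), with library totals (0.14, adjusted p = 0.592), within code series 76 (0.08, adjusted p = 0.876) and with the endothelial and fibroblast covariate (0.06, adjusted p = 0.888). Leaving out 1 library gave between 0.17 and 0.37; it passed without the female replicate 3 on 10% fat (0.37, adjusted p = 0.0115), the female replicate 2 on 44% fat (0.34, 0.0202) or the male replicate 2 on 44% fat (0.33, 0.0458). The difference of 0.31 between NZO/HlLtJ and CAST/EiJ on 44% fat (SE 0.12, adjusted p = 0.0198) was lost without NZO/HlLtJ male replicate 3 (0.21, adjusted p = 0.127) and without the 5 libraries (0.23, adjusted p = 0.246), was 0.14 with library totals (adjusted p = 0.476) and changed sign with the endothelial and fibroblast covariate (-0.14, adjusted p = 0.785).

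Adcy5 had its highest mean in NZO/HlLtJ on both diets. On 10% fat it ran from 5.73 to 8.97 CPM there (median 6.28, n = 7), from 3.59 to 6.24 in C57BL/6J (median 4.96, n = 8) and from 2.79 to 6.72 in CAST/EiJ (median 4.58, n = 7). The ranges overlapped, and the log2 differences were 0.43 from C57BL/6J (SE 0.14, adjusted p = 0.0138) and 0.51 from CAST/EiJ (SE 0.15, adjusted p = 0.00435). The former was lost without the NZO/HlLtJ male replicate 3 on 10% fat, the highest library at 8.97 CPM (0.33, adjusted p = 0.0823). On 44% fat the differences were 0.84 (SE 0.14, adjusted p = 3.75e-06) and 0.70 (SE 0.14, adjusted p = 4.94e-05), with levels of 7.82 ± 1.3 CPM (SD, n = 7) in NZO/HlLtJ, 4.43 ± 1.06 (SD, n = 8) in C57BL/6J and 4.87 ± 0.735 (SD, n = 8) in CAST/EiJ. The diet effect itself did not pass in NZO/HlLtJ (0.24, 95% interval -0.05 to 0.53, adjusted p = 0.223), nor did its difference from the effect in C57BL/6J (0.41, 95% interval 0.01 to 0.81, adjusted p = 0.159). The unadjusted p of that difference was 0.0536 by the edgeR test, so its normal interval, which leaves out 0, is slightly too narrow.

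The level of Adcy5 went with markers of stromal cells, and also with those of duct and Schwann cells. Fibroblast and pericyte markers summed to between 662 and 4010 CPM in NZO/HlLtJ and between 282 and 641 in the other strains, and endothelial markers to between 697 and 1060 against 367 to 620. Over the 12 group means, log2 Adcy5 had a Pearson correlation of 0.95 with the fibroblast and pericyte level and 0.94 with the endothelial level. Over the 45 libraries with group means removed, these were 0.46 and -0.07. Duct markers had 0.91 and Schwann cell markers 0.81 over group means, and 0.23 and 0.53 with group means removed. Alpha and delta cell markers each had -0.71 over group means. The points share libraries and composition scaling, so the values are descriptions. With the summed endothelial and fibroblast level as a covariate, chosen after seeing the data, the differences on 10% fat became 0.00 (adjusted p = 1) from C57BL/6J and 0.14 (adjusted p = 0.659) from CAST/EiJ, and those on 44% fat 0.07 (adjusted p = 0.957) and 0.02 (adjusted p = 0.972). NZO/HlLtJ and the other strains do not overlap in this marker level, so strain and marker level cannot be told apart here. The same limit holds for every NZO/HlLtJ strain difference given with this covariate.

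**Figure D3:**
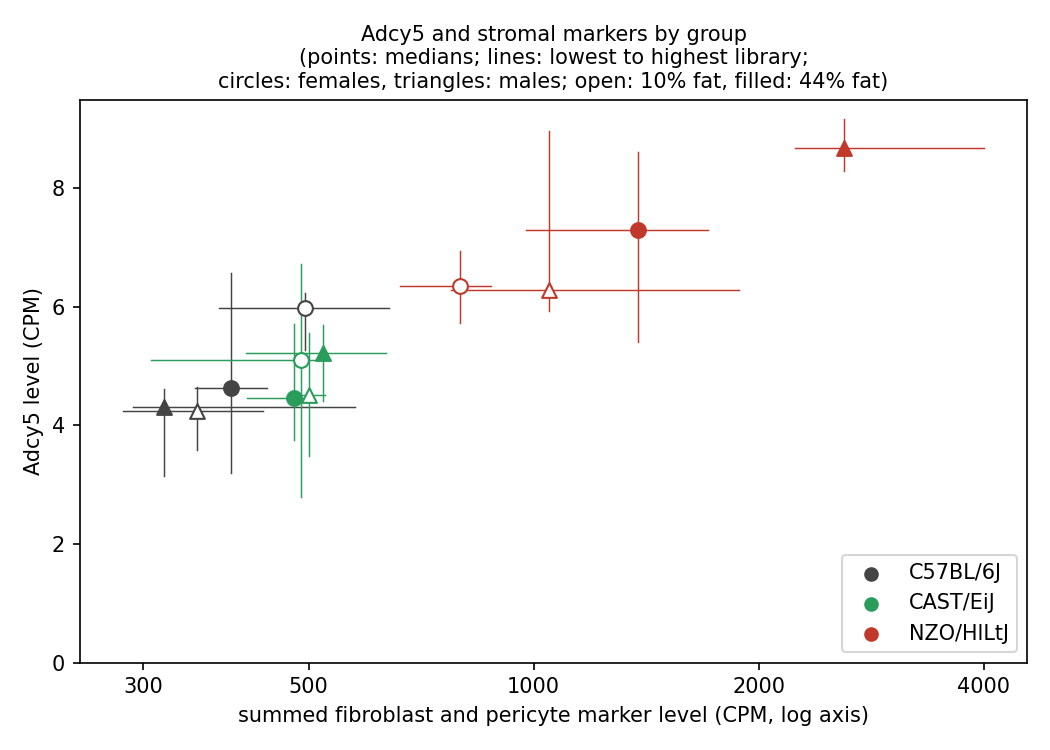
Adcy5 level in CPM against the summed level of 7 fibroblast and pericyte markers in CPM (log axis) for the 12 groups; points are group medians and lines run from the lowest to the highest library. The NZO/HlLtJ groups lie to the right of 641 CPM, and the NZO/HlLtJ males on 44% fat are highest on both axes.

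Cdkal1 varied least. On 10% fat it ran from 9.92 to 11.3 CPM in C57BL/6J (median 10.3, n = 8), from 10.7 to 13.6 in CAST/EiJ (median 12.6, n = 7) and from 10.4 to 12 in NZO/HlLtJ (median 11.6, n = 7). The CAST/EiJ range began inside that of C57BL/6J, and the log2 difference was 0.23 (SE 0.06, adjusted p = 0.00245), lost where library totals replaced composition scaling (0.19, adjusted p = 0.236). On 44% fat Cdkal1 was lower in NZO/HlLtJ than in CAST/EiJ by -0.15 (SE 0.06, adjusted p = 0.0388). It kept its call under 5 of 11 alternatives: DESeq2 did not call it (-0.12, adjusted p = 0.0765), and it changed sign with the endothelial and fibroblast covariate (0.02, adjusted p = 0.945). It was also lost when CAST/EiJ female replicates 2 or 3, CAST/EiJ male replicates 2 or 3, NZO/HlLtJ female replicates 1 or 3 or NZO/HlLtJ male replicates 1 or 2 on 44% fat were left out, over which adjusted p reached 0.109. Between CAST/EiJ and C57BL/6J on 44% fat the difference was 0.12 (adjusted p = 0.0871), and 0.26 (adjusted p = 0.0073) without the 5 libraries. The diet change in NZO/HlLtJ was -0.07 (95% interval -0.20 to 0.06).

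Hnf4g passed no strain comparison on 10% fat and all 3 on 44% fat. On 44% fat it ran from 1.84 to 4.07 CPM in NZO/HlLtJ (n = 7), from 3.89 to 5.03 in C57BL/6J (n = 8) and from 4.96 to 6.05 in CAST/EiJ (n = 8). NZO/HlLtJ did not overlap CAST/EiJ and met the lowest C57BL/6J libraries. The log2 differences of NZO/HlLtJ were -0.63 from C57BL/6J (SE 0.12, adjusted p = 2.41e-05) and -0.92 from CAST/EiJ (SE 0.12, adjusted p = 2.42e-08). With the endothelial and fibroblast covariate neither was called (-0.37, adjusted p = 0.578, and -0.68, adjusted p = 0.0914). CAST/EiJ was higher than C57BL/6J by 0.29 (SE 0.11, adjusted p = 0.0362). This call was lost without the 5 libraries (0.36, adjusted p = 0.0651), with library totals (0.28, adjusted p = 0.162), with the acinar covariate (0.25, adjusted p = 0.0566) and when C57BL/6J female replicates 2 or 3, C57BL/6J male replicates 2 or 3, CAST/EiJ female replicates 3 or 4 or CAST/EiJ male replicate 3 on 44% fat were left out.

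Diet in the other 2 strains and sex called no member. In C57BL/6J diet called 0 of 5 members and 0.0246% of all genes (5 genes), and in CAST/EiJ 0 of 5 and 0.0443% (9 genes), by edgeR. None of the 5 had an unadjusted p under 0.05 in either strain, and DESeq2 and limma called none of them. The largest of these changes was that of Tcf7l2 in C57BL/6J, 0.20 on the log2 scale (95% interval -0.02 to 0.42), and the widest interval was that of Adcy5 in CAST/EiJ (-0.24 to 0.33). Between males and females on 10% fat, over the 3 strains, edgeR called 0 of 5 members and 0.911% of all genes, and again 0 members had an unadjusted p under 0.05. The values ran from -0.18 for Hnf4a (95% interval -0.41 to 0.05) to 0.10 for Tcf7l2 (-0.09 to 0.29). DESeq2 and limma called no member there.

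Ranked by mean, each gene's 12 groups formed 11 neighbouring pairs, and the libraries of neighbours overlapped in every pair of every gene. For Hnf4a, from 64.3 CPM in NZO/HlLtJ females on 10% fat to 28.9 in C57BL/6J males on 44% fat, and for Cdkal1, from 12.6 in CAST/EiJ females on 10% fat to 10.4 in NZO/HlLtJ males on 44% fat, 0 of the 11 gaps exceeded the larger SD of the pair. Hnf4g had 2 such gaps, at the bottom of its order: from C57BL/6J males on 10% fat (4.37 CPM) to NZO/HlLtJ females on 44% fat (3.41 CPM), and from these to NZO/HlLtJ males on 44% fat (2.47 CPM). Tcf7l2 had 2, from C57BL/6J females on 44% fat (6.85 CPM) to C57BL/6J males on 10% fat (6.14 CPM) and from C57BL/6J females on 10% fat (5.92 CPM) to NZO/HlLtJ males on 10% fat (4.71 CPM). Adcy5 had 2, of which the upper lay between NZO/HlLtJ males (8.71 CPM) and females (7.15 CPM) on 44% fat.

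The other regulators around the HNF4 genes moved in both directions with diet in NZO/HlLtJ. Of 13 tested, 5 rose and 2 fell (list median 0.61, against -0.019 for all genes, of which 35.8% were called). The pioneer factor Foxa2 fell from 58.9 to 44.2 CPM (-0.44, SE 0.10, adjusted p = 0.000421). Prox1, a homeobox factor of endocrine and liver precursors, fell from 87.5 to 67.6 CPM (-0.35, SE 0.08, adjusted p = 0.00125).

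Onecut1, also known as HNF6, rose from 3.03 to 9.99 CPM (1.60, SE 0.49, adjusted p = 0.00953) and its relative Onecut2 from 2.27 to 5.05 CPM (0.94, SE 0.23, adjusted p = 0.00136). The nuclear receptor Nr2f2 rose from 11.1 to 21 CPM (0.81, SE 0.16, adjusted p = 0.000185), Gata6 from 10.1 to 13 CPM (0.30, SE 0.11, adjusted p = 0.0327) and the low Foxa1 from 0.197 to 0.544 CPM (1.38, SE 0.52, adjusted p = 0.0344). Nr5a2 (1.17, adjusted p = 0.0578), Nr0b2 (1.24, 0.125), Gata4 (0.61, 0.456), Ppargc1a (-0.35, 0.219), Foxa3 (-0.01, 0.972) and Nr2f1 (-0.01, 0.969) did not pass. Duct markers went from between 303 and 382 to between 460 and 830 CPM in females. In males they went from between 403 and 775 to between 1010 and 1750 CPM. The fibroblast and pericyte markers and the macrophage markers given above rose in the same comparison. The part of these cells in the changes of the regulators was not tested. In C57BL/6J and CAST/EiJ 0 of the 13 were called for diet.

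On 10% fat, 2 of the 13 regulators were higher and 4 lower in NZO/HlLtJ than in C57BL/6J (list median -0.15, 43.8% of all genes called). Nr2f1 (1.26) and Nr2f2 (0.97) were higher, while Onecut2 (-0.85), Foxa2 (-0.40), Gata6 (-0.38) and Prox1 (-0.21) were lower. Hnf4a, at 0.85, was thus higher in the strain in which Foxa2 was lower. Against CAST/EiJ 2 were higher, Ppargc1a (0.56) and Nr2f1 (0.50), and 3 lower, Onecut2 (-1.33), Gata6 (-0.42) and Foxa2 (-0.34). In that comparison 54.8% of all genes were called. Between CAST/EiJ and C57BL/6J 3 were higher and 2 lower (48% of all genes called). The fibroblast, pericyte and endothelial marker levels given above did not overlap between NZO/HlLtJ and either other strain, and their part was not tested. On 44% fat Foxa2 was lower in NZO/HlLtJ by -0.82 against C57BL/6J (SE 0.09, adjusted p = 1.1e-09) and by -0.80 against CAST/EiJ (SE 0.09, adjusted p = 1.2e-09).

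**Figure D4:**
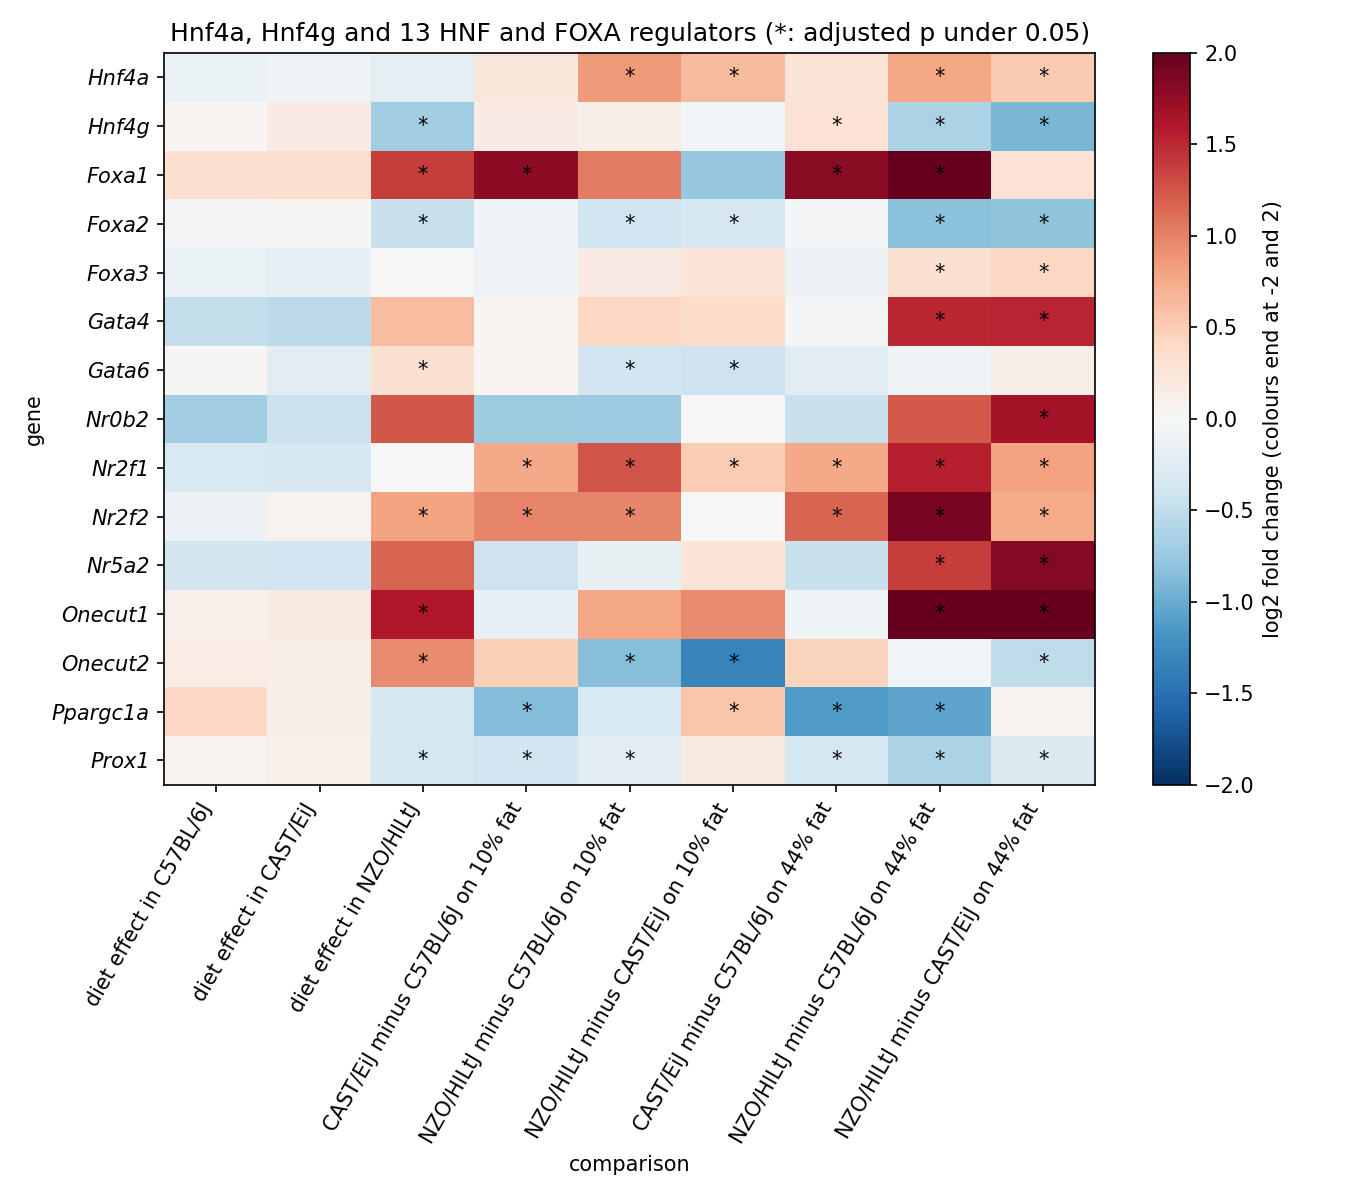
Log2 fold changes (colour, ending at -2 and 2) of Hnf4a, Hnf4g and the 13 tested HNF and FOXA regulators in 9 comparisons of diet and strain; asterisks mark an adjusted p under 0.05. The NZO/HlLtJ diet column holds 7 marked regulators and Hnf4g, and the other diet columns hold none.

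Of 16 tested target genes of hepatocyte nuclear factors, 3 rose and 4 fell with diet in NZO/HlLtJ (median -0.02, where 35.8% of all genes were called). Apob (1.23, SE 0.23, adjusted p = 5.87e-05), which encodes a lipoprotein, and Ttr (1.09, SE 0.23, adjusted p = 0.000386), a thyroid hormone carrier, rose, as did Vnn1 (1.34, SE 0.33, adjusted p = 0.00148). Log2 changes of those that fell were -1.07 for Slc2a2, the beta cell glucose transporter (SE 0.17, adjusted p = 8.83e-06), -0.78 for Kcnj11, a subunit of the ATP-sensitive potassium channel (SE 0.11, adjusted p = 7.99e-07), -0.49 for G6pc2, a glucose-6-phosphatase of islets (SE 0.17, adjusted p = 0.021), and -0.40 for Anks4b (SE 0.11, adjusted p = 0.00396), named after its value was seen. Slc2a2 and G6pc2 are also on the beta cell marker list, of which 7 of 10 fell, and Ttr is on the alpha cell marker list, of which 1 of 7 rose and 2 fell; the part of these cells in the changes was not tested. Between strains on 10% fat, 5 were higher and 1 lower in NZO/HlLtJ than in C57BL/6J (43.8% of all genes called). Apoc3 (3.45, SE 0.41) and Apob (2.61, SE 0.23) led these, with Slc2a2 lower at -0.67. Apoc3 was very low in both strains, at 0.297 against 0.0232 CPM, while Apob was at 7.5 against 1.23 CPM. Against CAST/EiJ 6 were higher and 6 lower (54.8% of all genes called). Mttp, which loads lipid onto apolipoprotein B, was higher there by 3.22 (SE 0.11, adjusted p = 3.23e-25). CAST/EiJ was the strain apart for Mttp, at 2.82 CPM against 26.3 in NZO/HlLtJ and 23.1 in C57BL/6J.

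**Figure D5:**
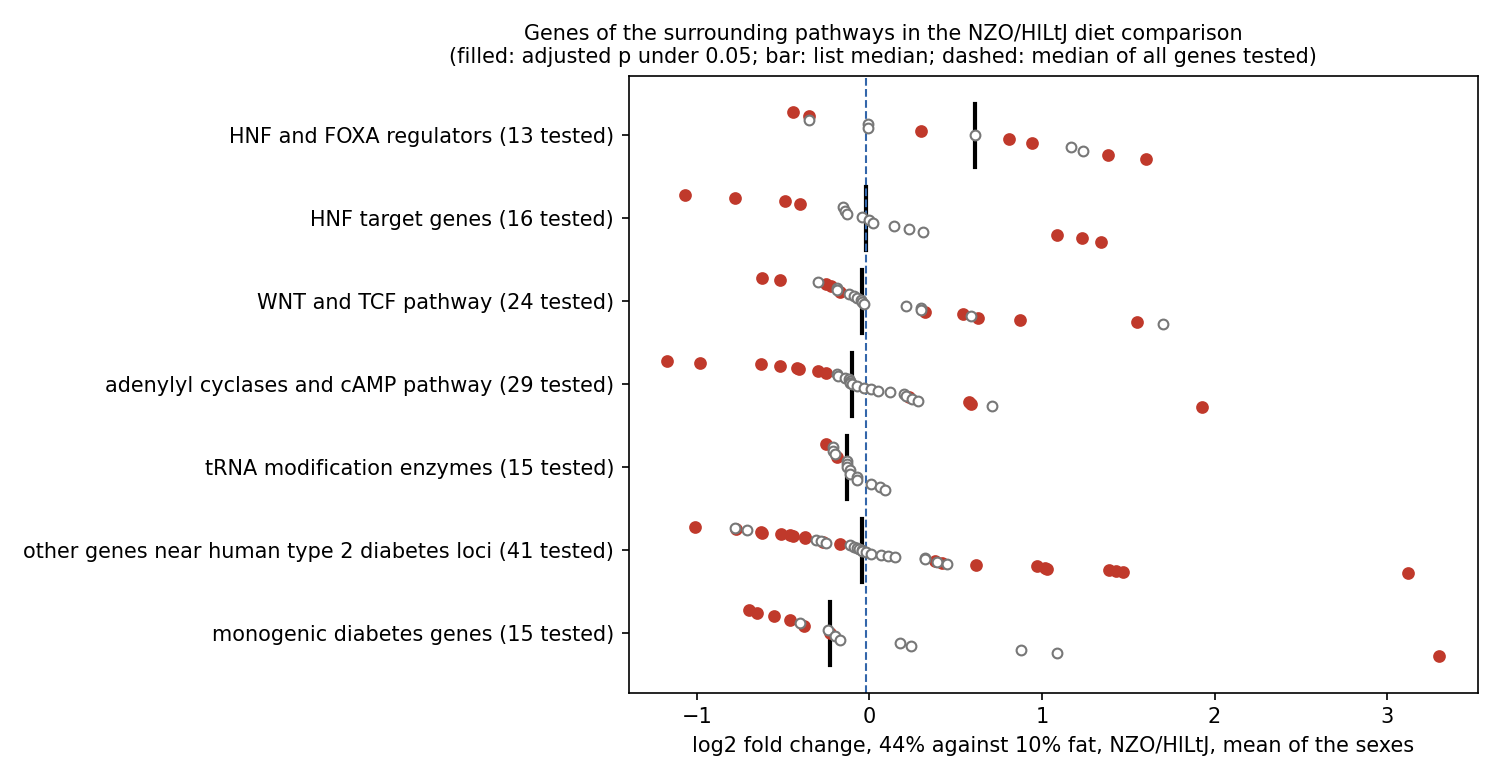
Log2 fold change with diet in NZO/HlLtJ (mean of the sexes) of each tested gene in 7 lists; filled points passed an adjusted p under 0.05, black bars are list medians and the dashed line is the median of all genes. The median of the regulators lies at 0.61 and that of the monogenic diabetes genes at -0.23.

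In the WNT pathway of Tcf7l2, 5 of 24 tested genes rose and 5 fell with diet in NZO/HlLtJ (median -0.05, where 35.8% of all genes were called). Notum, a secreted WNT inhibitor (1.55, SE 0.52, adjusted p = 0.0161), Rnf43, which removes WNT receptors (0.87, SE 0.28, adjusted p = 0.015), and the relative Tcf7l1 (0.63, SE 0.14, adjusted p = 0.000778) rose. The co-repressor Tle3 (-0.62, SE 0.11, adjusted p = 2.06e-05), the beta-catenin cofactor Bcl9 (-0.52, SE 0.09, adjusted p = 2.37e-05) and Axin1 of the destruction complex (-0.25, SE 0.08, adjusted p = 0.00955) fell. On 10% fat 3 were higher and 6 lower in NZO/HlLtJ than in C57BL/6J (43.8% of all genes called). Among them were Nkd1 (1.69) and the receptor gene Lgr5 (-1.41). The ligand gene Wnt5b was 3.57 higher in NZO/HlLtJ than in CAST/EiJ (SE 0.19, adjusted p = 1.24e-18) and its log2 difference between CAST/EiJ and C57BL/6J was -3.02 (SE 0.19, adjusted p = 8.3e-17).

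Of 29 tested adenylyl cyclase and cAMP genes around Adcy5, 4 rose and 8 fell with diet in NZO/HlLtJ (median -0.10, where 35.8% of all genes were called). The cyclase gene Adcy7 rose from 4.1 to 18.8 CPM (1.93, SE 0.24, adjusted p = 1.73e-07) and Adcy4 by 0.59 (SE 0.12, adjusted p = 0.000134). The incretin receptor genes Gipr (-1.17, SE 0.15, adjusted p = 5.78e-07) and Glp1r (-0.98, SE 0.16, adjusted p = 1.67e-05), whose products raise cAMP in beta cells, fell, as did Prkar2b, a regulatory subunit of protein kinase A (-0.63, SE 0.10, adjusted p = 5.25e-06). The macrophage and beta cell markers given above moved in the same comparison, and their part was not tested. On 10% fat 6 genes were higher and 10 lower in NZO/HlLtJ than in C57BL/6J (43.8% of all genes called). Lower ones included the phosphodiesterase gene Pde1c (-2.08, SE 0.13, adjusted p = 1.31e-16) and the cyclase genes Adcy8 (-1.33) and Adcy2 (-1.30), opposite in sign to Adcy5. Both cyclase genes were low, at 0.485 against 1.22 CPM for Adcy8 and 0.854 against 1.99 CPM for Adcy2. Adcy4 was higher, with the sign of Adcy5 (0.73, SE 0.11, adjusted p = 1.72e-06, 9.05 against 5.57 CPM).

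Of 15 tested enzymes that modify transfer RNA, the class of Cdkal1, 0 rose and 2 fell with diet in NZO/HlLtJ (median -0.13): Trmt5 (-0.25, SE 0.10, adjusted p = 0.0403) and Gtpbp3 (-0.19, SE 0.07, adjusted p = 0.0229). The share called among all genes was 35.8%. The cytosine methyltransferase gene Nsun3 was 1.89 higher in NZO/HlLtJ than in CAST/EiJ on the log2 scale (10% fat, SE 0.13, adjusted p = 2.67e-15), and Trmt10a 1.64 higher. Nsun3 was at 10.8 CPM in NZO/HlLtJ, 10.7 in C57BL/6J and 2.92 in CAST/EiJ, so CAST/EiJ was the strain apart. On 10% fat 5 of the 15 were higher and 1 lower in NZO/HlLtJ than in C57BL/6J, 7 and 4 against CAST/EiJ, and 4 and 4 in CAST/EiJ against C57BL/6J, where 43.8%, 54.8% and 48% of all genes were called.

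Among 41 other genes near human type 2 diabetes loci, 10 rose and 11 fell with diet in NZO/HlLtJ (median -0.04, where 35.8% of all genes were called). Mitotic genes were among those that rose: Kif11, a spindle motor (1.47, SE 0.15, adjusted p = 1.52e-08), and Prc1, a cytokinesis factor (1.43, SE 0.20, adjusted p = 1.03e-06). Slc30a8, the zinc transporter of insulin granules (-1.01, SE 0.13, adjusted p = 1.76e-07), Pparg (-0.77, SE 0.13, adjusted p = 2.53e-05) and the cyclin gene Ccnd2 (-0.63, SE 0.12, adjusted p = 8.15e-05) fell. Kif11 also rose with diet in C57BL/6J (0.99, SE 0.14, adjusted p = 0.000482), where no other gene of the 7 lists was called. Of 15 genes of monogenic diabetes 1 rose and 6 fell (median -0.23, with the same 35.8% of all genes called). Blk, a kinase gene of B lymphocytes that beta cells also express, rose from the low level of 0.0806 to 1.22 CPM (3.30, SE 0.78, adjusted p = 0.000805). Those that fell included the islet transcription factor genes Pax6 (-0.70, SE 0.09, adjusted p = 3.51e-07), Neurod1 (-0.65, SE 0.11, adjusted p = 1.62e-05) and Pdx1 (-0.55, SE 0.16, adjusted p = 0.00602). Some genes sit on more than one list, among them Pdx1 and Slc30a8, which are also beta cell markers. The lymphocyte and beta cell markers given above moved in the same NZO/HlLtJ comparison, and their part in these changes was not tested.

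The members did not share one pattern over the groups. Over the 12 group means of log2 CPM, Hnf4a and Adcy5 had r = 0.72, Tcf7l2 and Cdkal1 -0.74, Hnf4g and Adcy5 -0.70, and Hnf4a and Hnf4g -0.29. With group means removed, over 45 libraries, Hnf4a and Hnf4g had r = 0.36 and the other pairs named here -0.19, -0.13 and -0.10. Over the group means Hnf4g had r = -0.84 with macrophage, -0.80 with duct, -0.77 with fibroblast and pericyte and -0.73 with acinar markers. Within groups these were -0.29, -0.06, -0.20 and -0.33. Hnf4a had r = 0.80 over group means with endothelial markers and 0.31 with beta cell markers. These values share libraries and scaling and describe these points only.

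The genes whose group means were most like a member's were Dcaf5 (r = 0.98), Psmc5 (0.97) and Man2b2 (0.96) for Hnf4a, and Dusp18 (0.98), Arhgap12 (0.97) and Exoc5 (0.97) for Hnf4g, over 12 groups. For Tcf7l2 they were H2-K1 (0.98), Grm8 (0.97) and Jam2 (0.96), for Adcy5 Nox4 (0.98), Palld (0.97) and Ehd2 (0.97), and for Cdkal1 Thg1l (0.92), Akr1c19 (0.92) and Nme4 (0.92). Within groups, over 45 libraries, other genes led: Bcas3 (0.79) for Hnf4a, Fam101a (0.72) for Hnf4g, Apobec3 (0.76) for Tcf7l2, Dpysl3 (0.78) for Adcy5 and Gid4 (0.69) for Cdkal1. H2-K1 belongs to the MHC class I family, whose near-identical genes can share reads, so its value is uncertain.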

How the data were processed

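Islet RNA of 45 libraries was sequenced 150 bp paired-end from polyadenylated RNA (KAPA mRNA HyperPrep) with 100 M read pairs as the aim, per the labels' protocols. The authors deposited estimated counts per gene, not normalised, of which 19.7% were not whole within 1e-09, and variance-stabilised values on a log2 scale. The submitters' processing notes name GRCm38 and DESeq2; for aligner, counter, strand use and strain variants, nothing is stated in the labels or headers (not given in the sources used here).

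Counts were rounded and tested with edgeR 4.0.16 (R 4.3.3): TMM factors (0.486 to 1.18), the default filter over 12 groups, robust quasi-likelihood F tests in 1 model of 12 groups, 22 comparisons, and Benjamini-Hochberg adjustment over 20306 genes within each, at 0.05. In the 7 comparisons not described (0 members called in each) nothing is reported. Levels are CPM with TMM factors; log2 CPM used a prior count of 2. SE is the log2 fold change divided by the square root of F, and 95% intervals are normal, so they are slightly narrower than the F tests imply. The fitting procedure was tested on simulated data, where larger changes were recovered and many smaller ones were missed. DESeq2 1.42.0, limma 3.58.1 on the deposited values, other scalings, filters, covariates, sample code series and left-out libraries were tried.

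The members and lists were chosen with earlier results of these data known. Named genes were the members, every reported HNF and FOXA regulator (some genes of that list are not reported here and were left out of its counts), at most 3 called genes per direction and list for the NZO/HlLtJ diet effect and the strain differences on 10% fat (the largest changes; some are given by count only), and the genes most correlated with each member. Kif11 in C57BL/6J and values on 44% fat for Foxa2 were named after seeing them.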

Additional observations from a re-analysis of the deposited data

Results flagged for a closer look

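Of 45 groups of 4 libraries (9 groups for each of the 5 genes), 3 held a library that stood apart from the other 3 by Dixon's criterion (the gap to the nearest library over the range of the group); chance marks about 1 in 20 groups. Hnf4a was 40.3 CPM in CAST/EiJ male replicate 1 on 44% fat against 27.1 to 28 in the others (ratio 0.913). This library was the only one of sample code series 76 in its group. The series 76 library had the highest Hnf4a in every CAST/EiJ group (52.4 and 51.1 CPM in females on 10% and 44% fat, 48.9 and 40.3 in males). All other CAST/EiJ libraries ran from 25.6 to 43.8 CPM, and the cause was not tested. Hnf4g was 5.8 CPM in NZO/HlLtJ female replicate 3 on 10% fat against 4.42 to 4.57 (ratio 0.877). Tcf7l2 was 2.86 CPM in NZO/HlLtJ female replicate 2 on 44% fat against 4.53 to 4.78 (ratio 0.896).

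The diet effect on Hnf4g differed between strains by edgeR's interaction test: NZO/HlLtJ minus C57BL/6J was -0.74 on the log2 scale (adjusted p = 0.00257), and NZO/HlLtJ minus CAST/EiJ was -0.86 (adjusted p = 0.000535). In CPM, Hnf4g was lower on 44% fat in 7 of 7 NZO/HlLtJ libraries than in all 7 on 10% fat, with the nearest at 4.07 and 4.1 CPM. Without the 5 libraries with other-strain transcripts these interactions were -0.68 (adjusted p = 0.0199) and -0.85 (adjusted p = 0.00755), and with the endothelial and fibroblast covariate -0.63 (adjusted p = 0.323) and -0.75 (adjusted p = 0.0607).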

How the results depend on the processing

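Over 14 alternatives other than leaving out 1 library, 1274 of 1310 values of the 5 genes kept their side of the threshold, 29 were no longer called, 5 became called and 2 called values reversed. A further 71 values that had not been called also changed sign. Leaving out 1 library kept the side of the threshold for 1658 of 1685, with 21 calls lost and 6 gained. Of these values 53 changed sign, none of which had been called. Most values in both counts were not called in the main fit, so these shares say little about the calls. Among the called results, Hnf4g for diet in NZO/HlLtJ kept its call under 11 of 12 alternatives, and in NZO/HlLtJ females alone under 9 of 12. With the endothelial and fibroblast marker level as a covariate, chosen after seeing the data, Adcy5 in NZO/HlLtJ on 10% fat was 0.00 from C57BL/6J and 0.14 from CAST/EiJ, no longer called. On 44% fat Cdkal1 (0.02) and Tcf7l2 (-0.14) reversed between NZO/HlLtJ and CAST/EiJ. This marker level did not overlap between NZO/HlLtJ and the other strains, or between the diets within a NZO/HlLtJ sex. Values with it therefore cannot tell marker level from strain or diet. Under the same covariate the NZO/HlLtJ diet effect called 813 genes instead of 7270, and NZO/HlLtJ against C57BL/6J on 10% fat 3682 instead of 8903. With library totals the latter was 5763, and Cdkal1 between CAST/EiJ and C57BL/6J on 10% fat was 0.19. Tcf7l2 for diet in NZO/HlLtJ became called with DESeq2 (0.31), RLE size factors (0.31) and limma (0.25). Without the 5 libraries Cdkal1 between NZO/HlLtJ and C57BL/6J on 10% fat became called at 0.15 (adjusted p = 0.0391). Within sample code series 76 Hnf4g for diet in NZO/HlLtJ was -0.52 and 50 genes were called; with the series as a factor Hnf4g was still called. Within that series Hnf4g was -0.27 in females (adjusted p = 0.617) and -0.78 in males (adjusted p = 0.217).

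For diet in C57BL/6J, edgeR called 5 genes (755 at an unadjusted p under 0.05); the count was 1 without the 5 libraries, 48 by DESeq2, 19 with the endothelial and fibroblast covariate, 1 with the strain fitted alone, 3 with library totals, 2 by limma, 9 with the code series as a factor, and 0, 1 and 0 within series 76, 80 and 89. For diet in CAST/EiJ it was 9 (1566 unadjusted), and 1 without the 5 libraries, 4 with the acinar covariate, 41 by DESeq2, 0 with the strain alone, 2 by limma, 16 with RLE factors, 0 within series 80 and 15 within series 89. The causes were not tested. Leaving out 1 library gave between 1 and 26 genes for diet in C57BL/6J and between 7 and 65 in CAST/EiJ, with 65 reached without CAST/EiJ female replicate 2 on 10% fat. For Adcy5 in NZO/HlLtJ against C57BL/6J on 10% fat it gave 0.33 to 0.52, and for Tcf7l2 with diet in NZO/HlLtJ 0.17 to 0.37. No paired analysis was possible because replicate numbers follow accession order and the labels tie no libraries together. The depth limits Hnf4g most, with 134 to 590 counts per NZO/HlLtJ library.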
